A study of Mus musculus with 6 samples.

Results

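The 9 genes described here are Glud1, Glul, Got1, Got2, Gpt, Gpt2, Ggt1, Aldh4a1 and Prodh2. They encode enzymes that make, split or pass on glutamate in the kidney, except Prodh2, which encodes an enzyme of hydroxyproline breakdown. They were chosen by name from a table of 24346 genes, all 9 were found in it, and all 9 passed the minimum of 1 FPKM (mean over the libraries) set for testing, as did 11737 genes in all. The samples were kidney RNA from mice that had 1 kidney removed (unilateral nephrectomy), 3 libraries per group. Every mouse ate a diet free of serine for 1 week before surgery and was killed 2 days after it; the vehicle group drank plain water and the D-serine group water with 0.1% D-serine, the mirror-image form of L-serine. The labels give no age, sex or strain of the mice, and they do not say that each library came from its own mouse, so that p-values measure the spread between these 6 libraries. Sham-operated mice were not analysed here.

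Glutamate stands at the centre of renal nitrogen handling. The proximal tubule takes up glutamine, turns it into glutamate, strips the amino nitrogen of glutamate with glutamate dehydrogenase, sends the ammonia to the urine and keeps the carbon for glucose and bicarbonate. Transaminases move the amino group between glutamate and aspartate or alanine, and gamma-glutamyltransferase frees glutamate from filtered glutathione. Proline breakdown leads to glutamate, and hydroxyproline breakdown passes through the hydroxylated form of glutamate.

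None of the 9 genes passed the test between D-serine and vehicle. Adjusted p ran from 0.132 to 0.842 (limma on log2(FPKM + 1), Benjamini-Hochberg over all 11737 genes, threshold 0.05), where 0.0767% of all genes tested were called. Estimates were negative, that is lower with D-serine, for 7 of the 9 genes and positive for Got1 and Prodh2, where 51.1% of all genes tested had a lower estimate. The median log2 difference of the 9 genes was -0.22 against -0.0078 over all genes tested. In 4 genes, Glud1, Gpt, Ggt1 and Aldh4a1, all 3 D-serine libraries lay below all 3 vehicle libraries, a pattern found in 19.4% of all genes tested, and no member showed the reverse pattern (16.5% of all genes). Glud1, Gpt and Ggt1 had an unadjusted p under 0.05, each lower, as did 14.6% of all genes in that direction. In the lower direction these shares of the 9 genes were larger than those of all genes. At an unadjusted p under 0.05 in limma, 14.6% of all genes tested were lower and 13.1% higher, though few were called after adjustment. Whether this bears on the 9 genes was not tested. The 9 genes were not tested as a set, and nothing particular to them was shown.

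The values were taken as FPKM, a unit that the tables themselves do not name. FPKM divides the sequenced fragments of a gene by transcript length and library total, so that levels can be compared between genes. Ggt1 was by far the most abundant member, with a mean of 892 FPKM over the 6 libraries, between place 103 and place 171 of all genes in each library. Glud1 (246 FPKM), Glul (198 FPKM), Got2 (186.5 FPKM) and Aldh4a1 (176.5 FPKM) formed a middle group. Glud1 stood above Glul in 6 of 6 libraries although their ranges overlapped, while Glul and Got2, and Got2 and Aldh4a1, kept their order in only 4 of 6. Got1 followed at 72.1 FPKM, apart from its neighbours on both sides. Gpt (21.8 FPKM), Gpt2 (21.1 FPKM) and Prodh2 (20.8 FPKM) could not be ordered, as each neighbouring pair changed places in 3 of 6 libraries. The 9 genes together held 0.243 to 0.262% of the FPKM sum with vehicle and 0.199 to 0.22% with D-serine.

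**Figure D1:**
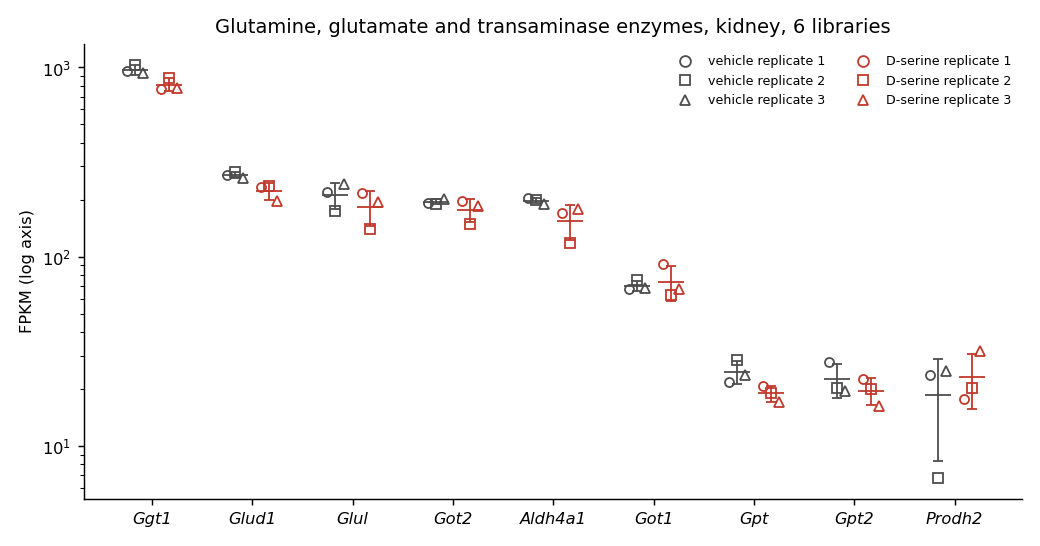
FPKM of the 9 enzyme genes in each of the 6 kidney libraries on a log axis, ordered by mean level; symbols are libraries, and the long marks and bars are the mean and SD of each group (n = 3). Ggt1 lies near 892 FPKM and Gpt, Gpt2 and Prodh2 near 21 FPKM, and the single low point of Prodh2 is vehicle replicate 2 at 6.76 FPKM.

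Glud1 encodes mitochondrial glutamate dehydrogenase, which releases the amino group of glutamate as ammonia and leaves 2-oxoglutarate. The gene lies on chromosome 14 (34310727 to 34345265, plus strand, mm10), and its longest annotated transcript has 13 exons. It read 271, 281 and 259 FPKM in the vehicle libraries and 233, 236 and 197 FPKM in the D-serine libraries. The vehicle libraries were close to each other, and each D-serine library lay below all of them. The group means were 271 ± 10.8 and 222 ± 22.1 FPKM (SD, n = 3 each), a log2 difference of -0.29 ± 0.10 (SE, 95% interval -0.53 to -0.045, limma adjusted p = 0.134). Leaving out 1 library at a time kept it between -0.33 and -0.20. The processed pseudogene Glud-ps has 97.6% identity to Glud1 over 656 bases, so that some fragments could be placed on either.

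Glul encodes glutamine synthetase, which fixes ammonia onto glutamate to make glutamine (chromosome 1, 153899944 to 153909723, plus strand). It read 220, 175.5 and 242 FPKM in the vehicle libraries and 216, 140 and 194 FPKM in the D-serine libraries. The groups overlapped, and replicate 2 was the lowest library in each. The log2 difference was -0.22 ± 0.19 (SE, 95% interval -0.66 to 0.22, limma adjusted p = 0.463), and without 1 library at a time it ran from -0.353 (vehicle replicate 2) to -0.041 (D-serine replicate 2). Processed pseudogenes with up to 96.8% identity to Glul over 1126 bases (Glns-ps1) are annotated, so that some fragments could be placed on either.

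The ratio of Glul, which makes glutamine, to Glud1, which breaks down glutamate, overlapped between the groups. These are not opposite steps on 1 compound. The ratio of Glul to Glud1 was 0.81, 0.625 and 0.934 in the vehicle libraries and 0.925, 0.594 and 0.988 in the D-serine libraries, below 1 in each library. Its log2 difference was 0.07 (exact two-sided permutation test, p = 0.8, adjusted p = 0.8 over the 4 ratios tested, n = 3 each). The sign turned without vehicle replicate 2 (-0.092), D-serine replicate 1 (-0.024) or D-serine replicate 3 (-0.071), and the difference was 0.295 without D-serine replicate 2 and 0.198 without vehicle replicate 3. A test of 3 against 3 cannot give a p below 0.1, so that none of the 4 ratios could pass.

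Got1 and Got2 encode the cytosolic and mitochondrial aspartate aminotransferases, the pair that carries reducing equivalents in the malate-aspartate shuttle. Got1 (chromosome 19, 43499752 to 43524605, minus strand) read 67.4, 75.5 and 68.4 FPKM in the vehicle libraries and 91.1, 62.9 and 67.5 FPKM in the D-serine libraries. D-serine replicate 1 was above all other libraries and D-serine replicate 2 below them. The log2 difference was 0.05 ± 0.15 (SE, 95% interval -0.30 to 0.40, limma adjusted p = 0.842), and without D-serine replicate 1 it was -0.11.

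Got2 (chromosome 8, 95864134 to 95888547, minus strand) read 193, 191 and 203 FPKM in the vehicle libraries and 197, 149 and 186 FPKM in the D-serine libraries. Only D-serine replicate 2 stood clearly below the rest. The log2 difference was -0.15 ± 0.12 (SE, 95% interval -0.44 to 0.13, limma adjusted p = 0.437), and -0.031 without that library. Got2-ps1, a processed pseudogene with 99.1% identity to Got2 over 1293 bases, and the noncoding gene Gm10874, with 98.8% over 1637 bases, make the assignment of Got2 fragments uncertain. Got2 also shares 434 exon bases with Gm45760 on the opposite strand; the library kit was a stranded one per the labels, but no source used here gives the strand setting of the quantification. The ratio of Got1 to Got2 was 0.349, 0.395 and 0.337 in the vehicle libraries and 0.462, 0.423 and 0.363 in the D-serine libraries, so that the mitochondrial form was the higher one in each library. The groups overlapped through D-serine replicate 3, and the log2 difference of 0.20 had an exact p of 0.2 (adjusted p = 0.6). Without D-serine replicate 1 it was 0.125, and without D-serine replicate 3 it was 0.298.

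Gpt and Gpt2 encode the alanine aminotransferases, Gpt the mainly cytosolic and Gpt2 the mitochondrial one, which exchange the amino group between alanine and glutamate. Gpt (chromosome 15, 76695716 to 76699686, plus strand) read 21.9, 28.6 and 23.6 FPKM in the vehicle libraries and 20.8, 19.1 and 17 FPKM in the D-serine libraries. The groups did not overlap, but the gap between the nearest libraries, 21.9 and 20.8 FPKM, was small beside the spread within vehicle. The means were 24.7 ± 3.46 and 19 ± 1.86 FPKM (SD, n = 3 each), a log2 difference of -0.36 ± 0.13 (SE, 95% interval -0.66 to -0.059, limma adjusted p = 0.132). This was the lowest adjusted p of the 9 genes.

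Gpt2 (chromosome 8, 85492576 to 85527560, plus strand) read 27.9, 20.2 and 19.5 FPKM in the vehicle libraries and 22.6, 20.0 and 16.3 FPKM in the D-serine libraries. The groups overlapped, and vehicle replicate 1 was highest. The log2 difference was -0.18 ± 0.17 (SE, 95% interval -0.59 to 0.22, limma adjusted p = 0.505), and it came to -0.027 without that library and -0.061 without D-serine replicate 3. The 2 forms were expressed at like levels: the ratio of Gpt to Gpt2 lay between 0.786 and 1.42 over the 6 libraries, and its log2 difference of -0.18 had an exact p of 0.6 (adjusted p = 0.8). This difference was -0.43 without vehicle replicate 1, -0.002 without vehicle replicate 2 and -0.117 without vehicle replicate 3. Gm5049, a processed pseudogene, has 92.2% identity to Gpt2 over 1328 bases.

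Ggt1 encodes gamma-glutamyltransferase, the brush border enzyme that cleaves glutathione outside the cell (chromosome 10, 75561604 to 75586200, plus strand, 20 annotated transcripts). It read 954, 1035 and 929 FPKM in the vehicle libraries and 769, 884 and 781 FPKM in the D-serine libraries. Every D-serine library lay below every vehicle library, with 884 FPKM in D-serine replicate 2 nearest to 929 FPKM in vehicle replicate 3. The means were 973 ± 55.0 and 811 ± 63.2 FPKM (SD, n = 3 each), a log2 difference of -0.26 ± 0.098 (SE, 95% interval -0.49 to -0.032, limma adjusted p = 0.142). It was -0.35 after quantile normalization (limma adjusted p = 0.0902), the lowest p of the alternatives. Leaving out 1 library at a time kept it between -0.326 and -0.218, the latter without vehicle replicate 2 (limma adjusted p = 0.355).

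Aldh4a1 and Prodh2 belong to the breakdown of proline and hydroxyproline. Aldh4a1 is the mitochondrial dehydrogenase that turns pyrroline-5-carboxylate into glutamate and serves the hydroxyproline route as well (chromosome 4, 139622866 to 139649690, plus strand). It read 203, 200 and 191 FPKM in the vehicle libraries and 169, 117.5 and 178 FPKM in the D-serine libraries. The vehicle libraries were tightly grouped, and D-serine replicate 2 lay far below the other 2 D-serine libraries. The means were 198 ± 6.48 and 155 ± 32.7 FPKM (SD, n = 3 each), a log2 difference of -0.37 ± 0.16 (SE, 95% interval -0.75 to 0.003, limma adjusted p = 0.182). Without D-serine replicate 2 the difference was -0.19. Aldh4a1 shares 1595 exon bases on the same strand with the annotated gene Gm21969, and fragments there cannot be told apart.

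Prodh2 encodes hydroxyproline dehydrogenase, the first enzyme of hydroxyproline breakdown (chromosome 7, 30493622 to 30513402, plus strand). It read 23.8, 6.76 and 24.9 FPKM in the vehicle libraries and 17.7, 20.1 and 31.8 FPKM in the D-serine libraries. It was the most variable member: its coefficient of variation was 55.0% with vehicle and 32.4% with D-serine, against 3.24 to 20.6% with vehicle in the other 8 genes. The low value of vehicle replicate 2 was 0.382 of the next lowest library, and of 11737 genes tested 32, Prodh2 included, stood as low or lower in that library by this ratio. At a rough estimate of 297 Prodh2 fragments in an average library, counting error would be near 5.8% if each fragment were an independent molecule. Vehicle replicate 2, at its lower value, would hold fewer Prodh2 fragments and have a larger counting error. The log2 difference was 0.46 ± 0.47 (SE, 95% interval -0.63 to 1.55, limma adjusted p = 0.538), and without vehicle replicate 2 it turned to -0.11. The ratio of Aldh4a1 to Prodh2 was 8.55, 29.6 and 7.65 in the vehicle libraries and 9.58, 5.83 and 5.6 in the D-serine libraries, and its log2 difference of -0.88 (exact p = 0.3, adjusted p = 0.6) was -0.25 without vehicle replicate 2.

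**Figure D2:**
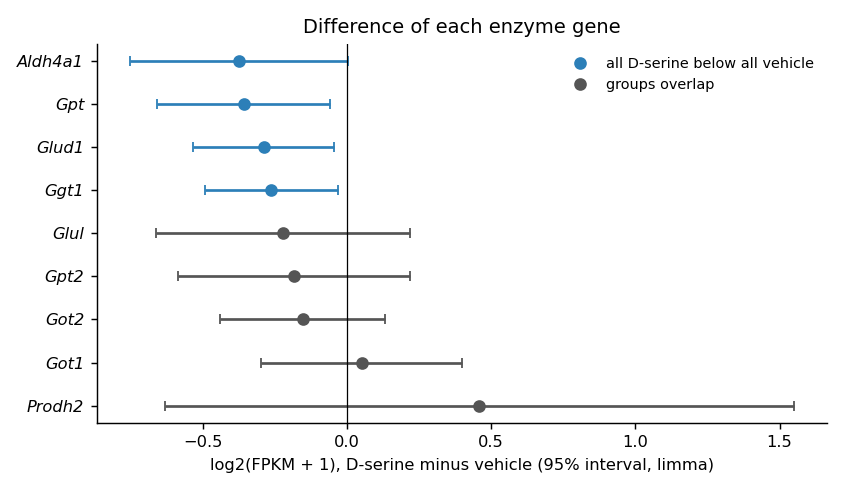
Log2(FPKM + 1) of D-serine minus vehicle for each of the 9 enzyme genes, with the 95% interval from limma; blue marks genes whose 3 D-serine libraries all lie below the 3 vehicle libraries. The 4 blue genes lie between -0.37 and -0.26, and the interval of Prodh2 is the widest, from -0.63 to 1.55.

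**Figure D3:**
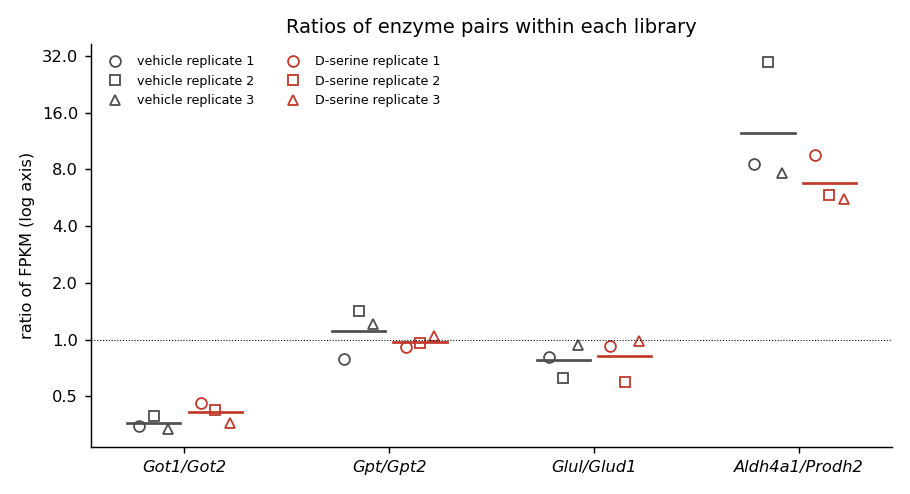
Ratio of FPKM of 2 genes within each of the 6 libraries on a log axis, for 4 pairs; symbols are libraries and bars the geometric mean of a group (n = 3). The groups overlap for each of the 4 pairs, and the Aldh4a1 to Prodh2 ratio of 29.6 is vehicle replicate 2.

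The sequences before the start sites of Glud1 and Prodh2 are shown because these genes are unlike in use: Glud1 is active in nearly all tissues, while Prodh2, the most variable member, is known as a gene of liver and kidney. RefSeq start sites on GRCm38.p6 (mm10) matched 8 of the 9 genes, with 11 windows of 250 bases before a start, since Ggt1 has 4 starts. Both sequences are given 5′ to 3′ on the plus strand and end before the first annotated exon base, chr14:34310477-34310726 for Glud1 and chr7:30493408-30493621 for Prodh2. Capitals mark GTTAAT or its reverse complement, the core of the motif of HNF1, a transcription factor of the proximal tubule and liver.
Glud1: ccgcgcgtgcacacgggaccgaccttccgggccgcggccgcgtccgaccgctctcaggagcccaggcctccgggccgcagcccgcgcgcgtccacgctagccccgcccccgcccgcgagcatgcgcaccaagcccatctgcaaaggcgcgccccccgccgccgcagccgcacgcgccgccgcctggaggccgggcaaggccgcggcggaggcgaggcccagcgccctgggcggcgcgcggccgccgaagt
Prodh2: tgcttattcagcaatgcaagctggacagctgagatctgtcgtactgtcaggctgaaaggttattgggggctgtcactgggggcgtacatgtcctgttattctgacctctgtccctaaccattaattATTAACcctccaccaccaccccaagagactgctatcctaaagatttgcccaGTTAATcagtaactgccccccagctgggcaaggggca

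The Glud1 window had 46 CpG dinucleotides and 82.0% G and C, and the 250-base Prodh2 window had 2 CpG dinucleotides and 51.6% G and C; the median of all 32851 promoter windows was 6 CpG dinucleotides and 52.4%. The Prodh2 window held the HNF1 core at 124 and 73 bases before the start, the Got2 window held it once, and the other 9 windows did not, where 6.43% of all windows did. TGACG, the core of the cAMP response element, was in 2 of the 4 Ggt1 windows and in no other member's, against 17.8% of all windows. AGAACA, 1 arm of the site of androgen and glucocorticoid receptors, and CAAAGTCCA, a form of the HNF4 site, were in none of the 11 windows, against 16.1% and 0.384% of all windows. Both strands were searched, and no match overlapped one of another motif. A match is a description of these letters and no evidence of binding.

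The other genes of the pathway were read from 6 lists with 72 genes, of which 56 were tested. In limma 0 of the 56 passed at an adjusted p of 0.05. At an unadjusted p under 0.05 there were 16 of the 56 lower, a larger share than the 14.6% of all genes tested. There were 6 of the 56 higher, a smaller share than the 13.1% of all genes. Estimates were lower for 39 and higher for 17, with a median log2 difference of -0.16, where 51.1% of all genes tested had a lower estimate. All D-serine libraries lay below all vehicle libraries for 19 of the 56, a larger share than the 19.4% of all genes tested. They lay above them for 6 of the 56, a smaller share than the 16.5% of all genes. The lists were not tested as sets.

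**Figure D4:**
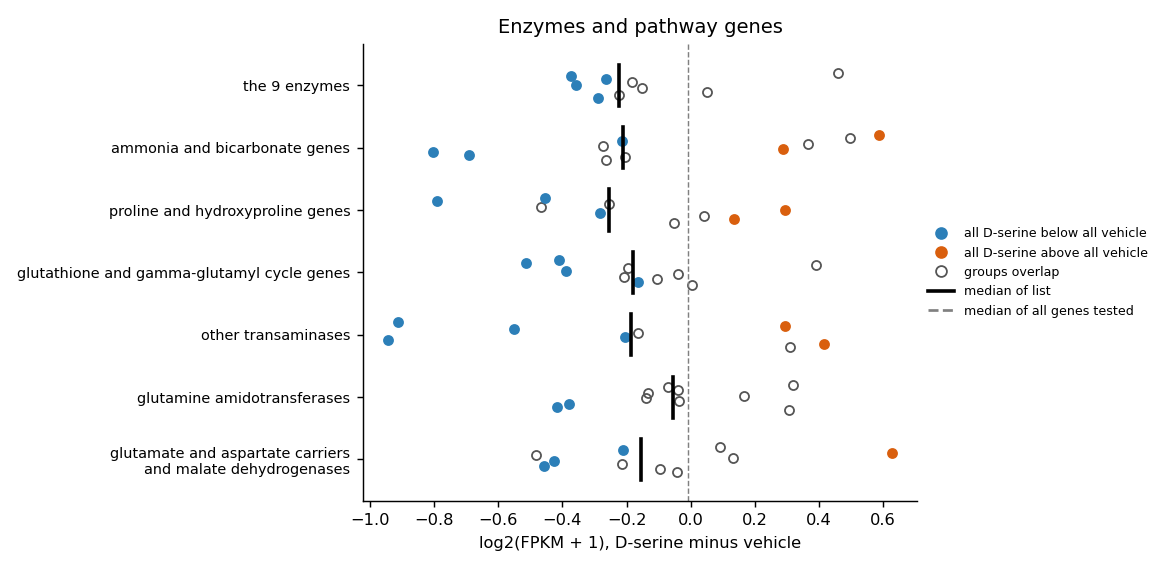
Log2(FPKM + 1) of D-serine minus vehicle for the 9 enzyme genes and the tested genes of 6 pathway lists (Oat is in 2 of them); filled points have groups that do not overlap, black bars are list medians and the dashed line is the median of all genes tested (-0.0078). List medians lie between -0.26 for proline and hydroxyproline genes and -0.055 for glutamine amidotransferases, and filled points lie on both sides.

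Of the ammonia and bicarbonate genes, 6 of 10 tested had a lower and 4 a higher estimate (median -0.21, but -0.11 without D-serine replicate 2 and 0.05 without D-serine replicate 3). The 2 with the smallest p were Slc9a3, the sodium-proton exchanger of the brush border, at 10.5 ± 3 and 6 ± 0.533 FPKM (log2 difference -0.69, limma adjusted p = 0.0852), and Slc4a4, the basolateral sodium bicarbonate cotransporter, at 88.4 ± 10.7 and 51.7 ± 15.7 FPKM (-0.80, adjusted p = 0.0897). Pck1, the gluconeogenic enzyme that uses the carbon of glutamine, was at 3784 ± 385 and 3351 ± 953 FPKM, with overlapping groups. Slc38a3, the glutamine transporter that feeds the pathway, read 48.4, 54.2 and 53.3 FPKM in the vehicle libraries and 45.8, 80.1 and 21.6 FPKM in the D-serine libraries: the D-serine libraries spanned the vehicle libraries on both sides. The 3 genes with a higher estimate at an unadjusted p under 0.05, chosen with their values in view, were the ammonia channels Rhbg (63.8 ± 6.51 and 97.6 ± 21.5 FPKM) and Rhcg (119.5 ± 15.8 and 172 ± 40.8 FPKM) and the carbonic anhydrase gene Car2 (226 to 278 FPKM with vehicle and 278 to 337 FPKM with D-serine). Their adjusted p in limma was 0.0972, 0.151 and 0.168.

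Of the proline and hydroxyproline genes, 6 of 9 tested had a lower and 3 a higher estimate (median -0.26, but -0.051 with no minimum level). Slc6a20a, a transporter of proline, was at 5.81 ± 0.512 and 2.96 ± 0.591 FPKM (log2 difference -0.79, limma adjusted p = 0.0583). The related gene Slc6a20b was at 82.6 ± 3.65 and 60.8 ± 12.1 FPKM (-0.45, adjusted p = 0.113). Hoga1, a hydroxyproline pathway enzyme that was chosen with its values in view and splits the last product before glyoxylate, stood at 168 ± 7.97 and 138 ± 10.9 FPKM (-0.28, adjusted p = 0.122), below vehicle in each D-serine library like Aldh4a1. Prodh, the proline counterpart of Prodh2, was at 99.1 ± 14.7 and 95.9 ± 17.7 FPKM and thus above Prodh2 in level in each library (log2 difference -0.05, 95% interval -0.43 to 0.33). Pycr1, of proline synthesis, was at no more than 0.266 FPKM. Oat, which links ornithine to the same intermediate, was at 55.7 ± 2.46 and 68.7 ± 5.29 FPKM, above vehicle in each D-serine library (0.30, adjusted p = 0.113).

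Of the other transaminases, 5 of 8 tested had a lower and 3 a higher estimate (median -0.19, but -0.069 with no minimum level). The 2 with the smallest p were Abat and Aadat. Abat, which breaks down GABA with 2-oxoglutarate as acceptor, read 78.7, 69.4 and 68.2 FPKM in the vehicle libraries and 38.3, 31.5 and 44.6 FPKM in the D-serine libraries. The groups were far apart, and the log2 difference of -0.91 ± 0.14 (SE, limma adjusted p = 0.0572) was larger in size than that of any of the 4 member transaminases. Aadat, a mitochondrial aminotransferase of 2-aminoadipate and kynurenine, read 125, 132 and 120 FPKM in the vehicle libraries and 53.7, 56.2 and 89.9 FPKM in the D-serine libraries, again with separate groups (-0.94 ± 0.19 SE, adjusted p = 0.0664). Bcat2, chosen with its values in view, went the other way, at 58.9 ± 5.65 and 79.3 ± 11.8 FPKM (0.42, limma adjusted p = 0.115). It was above vehicle in each D-serine library.

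Of the glutathione and gamma-glutamyl cycle genes, 8 of 10 tested had a lower and 2 a higher estimate (median -0.18, but -0.09 without D-serine replicate 2 and -0.12 without vehicle replicate 2). Anpep, a brush border peptidase that acts after Ggt1, was at 120 ± 12.8 and 83.7 ± 6.74 FPKM (log2 difference -0.51, limma adjusted p = 0.071). Chac2, which degrades glutathione inside the cell, was at 33.9 ± 2.46 and 25.4 ± 3.72 FPKM (-0.41, adjusted p = 0.108). Dpep1, another peptidase of this list, chosen with its values in view, had a higher estimate. It was at 31.22 ± 10.35 and 40.55 ± 10.77 FPKM, with overlapping groups (0.392, limma adjusted p = 0.401). Gclc, the catalytic subunit of the enzyme that spends glutamate on glutathione synthesis, was at 65.0 ± 7.37 and 65.4 ± 8.42 FPKM (0.005, 95% interval -0.30 to 0.31).

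Of the glutamine amidotransferases, which spend glutamine on hexosamines and nucleotides, 7 of 10 tested had a lower and 3 a higher estimate (median -0.055, and -0.091 without D-serine replicate 3). Gfpt1, the entry to hexosamine synthesis, was at 8.64 ± 0.481 and 6.22 ± 0.277 FPKM (log2 difference -0.42, limma adjusted p = 0.071), and the cytidine triphosphate synthase gene Ctps at 14.2 ± 2.45 and 10.6 ± 0.632 FPKM (-0.38, adjusted p = 0.122). Of the carriers and malate dehydrogenases, 7 of 10 had a lower and 3 a higher estimate (median -0.15, and -0.098 without D-serine replicate 1). Slc1a5, a plasma membrane glutamine transporter, was at 20.7 ± 1.93 and 33 ± 7.25 FPKM (0.63, adjusted p = 0.0817), above vehicle in each D-serine library. Slc25a13, the mitochondrial aspartate-glutamate carrier citrin that works beside Got2, was at 49.7 ± 3.40 and 36.3 ± 7.14 FPKM (-0.46, adjusted p = 0.116), below vehicle in each.

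The genes most like each of the 4 separated members over the 6 libraries were found among 10940 other genes, with predicted and small RNA genes left out, by the mean absolute difference between log2(FPKM + 1) values, each centred on the gene's own mean. Nearest to Aldh4a1 were Pex14 (0.011) and Gnai3 (0.022), both lowest in D-serine replicate 2 like Aldh4a1. Nearest to Ggt1 were Bdp1 (0.027) and Gosr1 (0.028), to Glud1 Adssl1 (0.031) and Spire1 (0.036), and to Gpt Atg4a (0.038) and Cdc42se1 (0.041). Bdp1 (1.318 to 2.01 FPKM) and Adssl1 (2.199 to 3.478 FPKM) were low, at levels where adding 1 before the log2 understates differences. The members' own mean deviations on this scale were between 0.13 and 0.2.

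In whole tissue, fewer cells of a type and less messenger RNA per cell cannot be told apart. Markers of some nephron segments also stood at different levels in the groups. Over all genes tested, 51.1% had a lower estimate. Proximal tubule markers of S3, 10 in all, summed to 4530 to 4760 FPKM in vehicle and 2500 to 3460 FPKM in D-serine libraries, with a lower estimate for 8 of 9 tested. The sum of 13 markers of the S1 and S2 segments overlapped, at 5380 to 6690 and 5090 to 6180 FPKM, with 10 of 13 lower, Slc4a4 among them. Of the 8 androgen-responsive genes, 7 of 7 tested had a lower estimate, with a median log2 difference of -1.06. Slc7a12 and Cyp7b1 of this list are S3 markers as well, so the lists are not separate observations. Their sum overlapped (111000 to 137000 and 93700 to 127000 FPKM), but most of it was Kap, at 11.6 to 15.8% of all FPKM in each library. Principal cell markers of the collecting duct summed to 465 to 621 and 684 to 1030 FPKM, with 8 of 8 tested higher, and intercalated cell markers to 384 to 473 and 462 to 649 FPKM, with 11 of 11 higher, Rhcg among them. Markers of the distal convoluted and connecting tubule summed to 694 to 879 and 882 to 1060 FPKM, with 8 of 8 higher. Markers of fibroblasts, pericytes and smooth muscle summed to 25.0 to 35.2 and 39.5 to 75.0 FPKM, also with 8 of 8 tested higher. Podocyte markers were higher for 6 of 6 tested, though their sums overlapped (10.1 to 52.3 and 29.8 to 36.3 FPKM). Markers of dividing cells summed to 12.8 to 16.3 FPKM with vehicle and to 222, 81.4 and 63.4 FPKM in D-serine replicates 1 to 3. Thick ascending limb markers were split, 4 higher and 4 lower, and their sums overlapped (1590 to 1830 and 1050 to 1620 FPKM). Endothelial markers were higher for 6 of 8 tested, with overlapping sums (26.2 to 48.4 and 42.0 to 60.1 FPKM). Leukocyte markers were higher for 3 of 4 tested, also with overlapping sums (9.65 to 14.4 and 10.1 to 19.1 FPKM). None of the markers of these lists was at 0 in all libraries, except the leukocyte marker Cd3e. Their part in the values of the 9 genes was not tested. Adipocyte markers summed to no more than 0.208 FPKM and adrenal cortex markers to no more than 1.36 FPKM; Plin1, Lep, Cfd, Cyp11b1 and Cyp11b2 are listed at 0 in each library, which can also be a failed estimate.

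The tables give no totals, and steps between low FPKM values put the depth, roughly, at 7620000 to 8440000 fragments in the vehicle and 7060000 to 7540000 in the D-serine libraries, least in D-serine replicate 2. Each D-serine library was thus shallower than each vehicle library, and the part of depth in the values was not tested. That library held the lowest value of 4 of the 9 members, and D-serine replicate 3 that of 3. Of genes at a mean of 10 FPKM or more, small RNA and predicted genes left out, 27 stood under 0.5 of the next lowest library in D-serine replicate 2, against 0 to 5 in the other libraries. Correlations between libraries over all genes tested ran from 0.941 to 0.973 (Pearson r of log2 values, across genes, which are not independent replicates).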

How the data were processed

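The labels' protocols name TRIzol extraction and a stranded mRNA kit (TruSeq). The values the authors deposited, 1 table for each sample, were taken as FPKM because Cufflinks is the only quantifier in the submitters' processing notes; the file headers name no unit. Aligners and quantifier were TopHat2 2.0.13 with Bowtie2 2.2.3, SAMtools 0.1.19 and Cufflinks 2.2.1, on mm10, per the submitters' processing notes. No source used here gives the annotation, strand setting or filters. A failed Cufflinks estimate can appear as 0, so 0 is reported as listed.

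Genes whose 6 libraries averaged 1 FPKM or more were tested with limma 3.58.1 in R 4.3.3 (lmFit, eBayes with trend) on log2(FPKM + 1), 3 against 3, two-sided, Benjamini-Hochberg over all genes. The pseudocount of 1 understates differences of low genes. No count test was run. Ratios of 2 genes within a library used an exact permutation test (scipy 1.17.1). The members and lists were chosen with earlier results of these data known. Besides the 9 genes, fixed partner genes, the 2 genes with the smallest unadjusted p in each list and any called gene are named; the partners from 1 enzyme pair and their ratios are not reported here. Depth was estimated from the spacing of low values, scaled on 169 genes with 1 annotated transcript. Positions are from GENCODE M21, near-identical transcripts were searched with BLAST 2.17.0 (at least 90% identity over 200 bases), and promoter sequences are RefSeq's. The scripts were tested on simulated data. Alternatives were other pseudocounts, minimums, scalings, limma settings, a replicate block, leaving out small RNA and predicted genes, and leaving out each library.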

Additional observations from a re-analysis of the deposited data

How the results depend on the processing

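The count of members called stayed at 0 in each of 17 alternatives, and the 9 differences kept their sign in all of them except Got1 without D-serine replicate 1 (-0.108) and Prodh2 without vehicle replicate 2 (-0.11). Without 1 library at a time Got1 ran from -0.108 to 0.156 and Prodh2 from -0.11 to 0.761. The lowest adjusted p of any member in any alternative was 0.0902, for Ggt1 after quantile normalization. The count over all genes was far less stable: 9 as reported, 171 and 221 with pseudocounts of 0.1 and 0.01, 132 with a minimum of 5 FPKM, 15 with median of ratios scaling, 269 with weighted libraries, 364 with small RNA and predicted genes left out, and 2 to 437 without 1 library, the highest without D-serine replicate 3. The count of the 56 other pathway genes called was 0 as reported, 2 with either smaller pseudocount, 1 with the minimum of 5 FPKM, 3 with weighted libraries, 3 with small RNA and predicted genes left out, and 0 to 6 without 1 library. Abat passed in 6 and Slc6a20a in 5 of the 17 alternatives, Aadat in 3, and Slc4a4, Agxt2 and Rhbg in 1 each, without D-serine replicate 3. Without 1 library at a time, list medians ran from -0.24 to 0.053 (ammonia and bicarbonate), -0.299 to -0.194 (proline and hydroxyproline), -0.223 to -0.09 (glutathione), -0.229 to -0.134 (other transaminases), -0.091 to -0.046 (amidotransferases) and -0.18 to -0.098 (carriers). Why these values moved was not tested.

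With the replicate number as a block, 2 genes, 0 members and 0 pathway genes were called. The labels do not say what the numbers share, and deviations of same-numbered libraries correlated at -0.070, 0.0031 and 0.067, so the numbers were not taken as pairs.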
